A study of Mus musculus with 11 samples.

Results

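The carboxylesterases examined here are 10 genes, *Ces1b*, *Ces1c*, *Ces1d*, *Ces1e*, *Ces1f*, *Ces1g*, *Ces2a*, *Ces2e*, *Ces3a* and *Ces3b*, among the 13669 genes of a table of reads counted in mouse liver. They were chosen by symbol. *Ces2a* was already known to be among the genes that were clearly lower in one of the groups compared, and its relatives of the Ces1, Ces2 and Ces3 subfamilies were taken with it. All 10 passed the filter on low counts, which asks for over 10 reads in 5 or more livers, and were among the 13334 genes tested. The difference between the groups was therefore used in choosing the family, and for its members this difference is given as a description, without p values.

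Carboxylesterases cleave ester, amide and thioester bonds, and most of them reside in the lumen of the endoplasmic reticulum of hepatocytes. They are known for the hydrolysis of ester drugs, prodrugs and pesticides. Several also act on stored neutral lipids and thereby influence the triacylglycerol that the liver secretes in very-low-density lipoproteins. In the mouse the subfamilies have expanded by gene duplication, and individual members differ in substrate preference and in whether they are retained in the cell or secreted into plasma.

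The livers came from 11 male C57BL/6J mice on regular chow, all wild type and all given a recombinant adeno-associated virus of serotype 8 (rAAV). In 6 animals the virus carried a tough decoy (AAV-TuD), an RNA that binds and sequesters *miR-379* and *miR-541*. In liver, the study reports that the decoy also lowered the host transcripts *lncMGC* and *Mirg* and other miRNAs of the same cluster. The virus of the other 5 carried a negative control sequence (AAV-NC). Both sequences were driven by LP1, a promoter built from the hepatic control region of human apolipoprotein genes and the human alpha-1-antitrypsin promoter, which directs expression to hepatocytes, so that animals without virus are not part of the comparison. Whole liver was sequenced, and the age of each animal and its time after rAAV are not given for these samples. For its decoy studies in general, the study's methods describe mice injected in the tail vein and killed after a fast of some hours, weeks to months after the injection. The comparison asks how liver transcripts differ when the decoy is expressed in place of the control sequence.

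The decoy is aimed at the following mature miRNAs, shown because their seed (bases 2 to 8, in capitals) is the part that pairs with a target transcript. The sequences are those of RefSeq on GRCm38.p6, on the plus strand of chromosome 12 at 109709065 to 109709085 for miR-379-5p and at 109742422 to 109742446 for miR-541-5p. The seeds differ from each other.
miR-379-5p: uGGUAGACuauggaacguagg
miR-541-5p: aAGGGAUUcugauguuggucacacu

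The AAV-NC livers had 8148531 to 11971245 counted reads and the AAV-TuD livers 8923726 to 12043959. The *Mup* genes, which encode small urinary proteins secreted by male liver, took 38.6% of the reads of AAV-NC liver 7, 30.9% of those of AAV-TuD liver 3 and 28.4% of those of AAV-TuD liver 5, against 8.09% to 18.7% elsewhere. Values are therefore CPM, reads scaled to a common library total, after TMM scaling, which sets the libraries to a common level by the bulk of the genes and not by the total. With this scaling 577 of the 13334 genes (4.33%) were lower and 966 (7.24%) higher with AAV-TuD at a Benjamini-Hochberg adjusted p under 0.05 (quasi-likelihood test of edgeR), and the groups did not overlap for 985 genes (7.39%). With the total number of reads alone as the scale, the calls were 71 lower and 1386 higher, 95.1% of them higher against 62.6% with TMM, and the all-gene median of the log2 fold change moved from -0.0024 to 0.23. Markers of hepatocytes were abundant in every liver, at a summed 51360 to 58699 CPM with AAV-NC and 59431 to 66696 CPM with AAV-TuD. Of the 10, 1 was called lower and 0 higher, with a median log2 fold change of 0.08. At an unadjusted p under 0.05 in edgeR 3 were higher and 2 lower, and with DESeq2 3 were called higher and 2 lower. Of the tested markers of other liver cells, 8 of 10 of stellate cells, 7 of 10 of Kupffer cells and 4 of 4 of cholangiocytes were higher with AAV-TuD, and 0 of 10 of sinusoidal endothelial cells were called (at an unadjusted p under 0.05, 1 higher and 0 lower in edgeR, and 0 calls with DESeq2). The summed level of stellate markers was 218.5 to 277.7 CPM in the AAV-NC and 376.6 to 517.9 CPM in the AAV-TuD livers. That of cholangiocyte markers was 20.3 to 40.9 and 47.5 to 79.3 CPM, and that of Kupffer markers ranged from 125.9 to 186.0 CPM with AAV-NC and from 140.6 to 398.9 CPM with AAV-TuD. No tested marker was at 0 in any liver, and 6 of the 10 cholangiocyte markers were not among the genes tested. Of the 4 that were, *Epcam* averaged 0.664 CPM with AAV-NC and 2.60 CPM with AAV-TuD. It met the filter on low counts mainly through the AAV-TuD livers, so the count of 4 of 4 is in part set by the filter. The part of these cells in the values below was not tested. In whole liver, fewer cells of a type and less RNA per cell cannot be told apart.

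The 10 members lie on chromosome 8 of GRCm38 in 2 groups of neighbouring genes. The 6 *Ces1* genes are on the minus strand between 93056728 and 93337308, a stretch of 280.6 kb. The *Ces2* and *Ces3* genes are on the plus strand between 104734003 and 105093929, a stretch of 359.9 kb, and 11396.7 kb separate the groups. Within the *Ces1* genes the annotated coding sequences were 72.0% to 88.8% identical over 15 pairs, with *Ces1b* and *Ces1c* the closest pair. *Ces2a* and *Ces2e* shared 83.2% and *Ces3a* and *Ces3b* 95.3%, whereas the 28 pairs of different subfamilies shared 54.0% to 58.6%. A sequenced 3′ end of a near-identical gene can match its copy too. Of the words of 50 bases in the last 500 bases of the transcripts, 25.1% were common to *Ces1b* and *Ces1c*, 31.3% of those of *Ces3a* and 5.99% of those of *Ces3b* occurred in the other, and 9.98% of those of *Ces2a* occurred in other genes, mostly the predicted gene *Gm7208*. For *Ces1d* and *Ces1f* the share was 1.77% and 2.22%, and for *Ces1e*, *Ces1g* and *Ces2e* it was 0%. How reads that match several genes were counted is not stated, so the levels of *Ces1b*, *Ces1c*, *Ces2a*, *Ces3a* and *Ces3b* carry this uncertainty. *Ces3a* also overlaps the antisense gene *Gm45724*, and the strand setting of the counting is not stated either.

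In the control livers the family was led by *Ces1c*, which encodes the carboxylesterase that is secreted into mouse plasma, at 919 ± 71.5 CPM (SD, n = 5). *Ces3a* followed at 687 ± 102 CPM, below *Ces1c* in 4 of 5 livers, and *Ces3b* at 309 ± 43.6 CPM was below *Ces3a* in 5 of 5 livers. *Ces2a* at 177 ± 15.3 CPM and *Ces1d* at 175 ± 36.0 CPM were not separated, since *Ces2a* was the higher in 2 of 5 livers, and neither were *Ces1f* at 116 ± 13.2 CPM and *Ces1e* at 112 ± 20.1 CPM, with *Ces1f* higher in 3 of 5. *Ces2e* at 62.0 ± 17.1 CPM, *Ces1g* at 48.6 ± 12.0 CPM and *Ces1b* at 28.6 ± 3.56 CPM closed the order, each above the next in 5 of 5 livers. Since the libraries cover only the 3′ end of each transcript, CPM does not grow with transcript length and genes can be compared. A two-sided sign-flip test over 5 livers cannot pass 0.05, and the order is given without a test. With AAV-TuD the leading 3 genes were the same, but *Ces1d* was above *Ces2a* in 6 of 6 livers, and *Ces2e* was above *Ces1e* in 3 of 6 while it had been below it in 5 of 5 control livers.

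*Ces2a*, an esterase of hepatocytes and enterocytes that cleaves drug esters and also acylglycerols, had the largest difference of the family. Its level was 181, 167, 182, 158 and 197 CPM in AAV-NC livers 1, 2, 6, 7 and 8, and between 90.7 and 113 CPM in the 6 AAV-TuD livers, with a median of 106 CPM. All AAV-TuD livers were below all AAV-NC livers. The log2 fold change was -0.77 (SE 0.08), a level 41.3% lower with AAV-TuD. *Ces2e*, the other *Ces2* member, was 86.2, 71.6, 58.3, 50.4 and 43.5 CPM in the control livers and 68.2 to 102 CPM with AAV-TuD, with a median of 79.5 CPM. The groups overlapped, with 2 AAV-TuD livers above all controls, and the log2 fold change was 0.41 (SE 0.16), which did not pass the threshold. *Ces2a* extends from 104734003 to 104741634 and *Ces2e* from 104926260 to 104934672, both on the plus strand. The family genes *Ces2b*, *Ces2c* and *Ces2d-ps*, which are not members, lie between them.

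The 250 bases before the RefSeq start of *Ces2a* (chr8:104733753-104734002, GRCm38.p6, plus strand) and of *Ces2e* (chr8:104926010-104926259, plus strand) are printed below because these paralogs had log2 fold changes of opposite sign. Capitals mark their longest common run, 17 bases that occur in 2 of the 32851 RefSeq promoter windows of the mouse. Counted from the start, the run begins at -205 in *Ces2a* and at -183 in *Ces2e*. Over their length the windows were 53.2% identical, against 42.0% to 48.4% over the 29 pairs of promoter windows from different subfamilies. Within the subfamily, the *Ces2a* window was closer to that of the non-member *Ces2c*, at 64.6%. *Ces2c* and *Ces2e* were 51.2% identical.
Ces2a: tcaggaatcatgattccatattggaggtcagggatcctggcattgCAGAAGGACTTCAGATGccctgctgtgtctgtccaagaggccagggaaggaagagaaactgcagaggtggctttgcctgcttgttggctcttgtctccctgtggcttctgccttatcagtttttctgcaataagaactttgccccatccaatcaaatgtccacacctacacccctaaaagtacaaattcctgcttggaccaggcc
Ces2e: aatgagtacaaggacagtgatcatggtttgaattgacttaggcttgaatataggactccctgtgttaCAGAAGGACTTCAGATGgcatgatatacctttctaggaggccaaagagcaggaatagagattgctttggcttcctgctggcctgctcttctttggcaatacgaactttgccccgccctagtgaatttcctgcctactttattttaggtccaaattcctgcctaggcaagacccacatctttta

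*Ces1c*, the most abundant member, was 911, 881, 1023, 833 and 945 CPM in AAV-NC livers 1, 2, 6, 7 and 8 and ranged from 645 to 723 CPM with AAV-TuD, with a median of 701 CPM. The groups did not overlap. The log2 fold change was -0.40 (SE 0.08), and the coefficient of variation between livers was 7.78% with AAV-NC and 4.26% with AAV-TuD. *Ces1b*, whose coding sequence is closest to that of *Ces1c* and which lies next to it, was 29.2, 24.9, 28.0, 26.5 and 34.3 CPM in the controls and 18.6 to 25.6 CPM with AAV-TuD, with a median of 21.0 CPM. In 5 of 6 AAV-TuD livers it was below all controls, and its log2 fold change was -0.40 (SE 0.10). The ratio of *Ces1b* reads to *Ces1c* reads was 0.0274 to 0.0362 in the controls and 0.0272 to 0.0370 with AAV-TuD, and these ranges overlapped. Of the 50-base words near their 3′ ends 25.1% are common, as given above. How far the counts of *Ces1b* hold reads of the more abundant *Ces1c* was not tested.

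The 250 bases before the RefSeq starts of *Ces1b* (chr8:93079941-93080190, GRCm38.p6, minus strand) and *Ces1c* (chr8:93131284-93131533, minus strand) are shown because these neighbours had the same log2 fold change. The counts behind those fold changes may share reads, as given above. The windows were 76.2% identical. Capitals mark their longest common run, 58 bases that occur in 3 of the 32851 windows, all of them of *Ces1b* or *Ces1c*. The window before a further RefSeq start of *Ces1b* (chr8:93080018-93080267) overlaps the first and holds the same run closer to its start. Aligned end to end it was 39.7% identical to the *Ces1c* window. Gaps count against identity here, so the offset of the run lowers this value and it does not measure how alike the shared stretch is.
Ces1b: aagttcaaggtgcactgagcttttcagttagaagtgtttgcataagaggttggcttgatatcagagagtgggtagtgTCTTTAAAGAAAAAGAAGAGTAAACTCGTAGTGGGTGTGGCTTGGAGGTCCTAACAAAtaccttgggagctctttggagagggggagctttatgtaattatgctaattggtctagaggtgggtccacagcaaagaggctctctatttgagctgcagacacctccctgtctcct
Ces1c: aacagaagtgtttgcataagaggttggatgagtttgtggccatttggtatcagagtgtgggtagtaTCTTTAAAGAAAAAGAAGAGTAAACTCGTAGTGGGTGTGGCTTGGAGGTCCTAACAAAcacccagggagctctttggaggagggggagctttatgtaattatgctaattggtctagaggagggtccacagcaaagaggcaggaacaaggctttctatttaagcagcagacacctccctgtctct

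*Ces1e* encodes egasyn, the esterase that anchors β-glucuronidase in the endoplasmic reticulum. It was 118, 135, 116, 80.2 and 109 CPM in the control livers and 60.3 to 89.0 CPM with AAV-TuD, with a median of 69.6 CPM. AAV-NC liver 7, the lowest control, lay within the AAV-TuD values and the other controls lay above them. The log2 fold change was -0.61 (SE 0.13). *Ces1f* was 132, 121, 102, 103 and 122 CPM in the controls and 66.7 to 106 CPM with AAV-TuD, with a median of 81.6 CPM. Only AAV-TuD liver 3 reached the controls, and the log2 fold change was -0.46 (SE 0.11).

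*Ces1d*, the triacylglycerol hydrolase that mobilises stored lipid for lipoprotein secretion, did not pass the threshold. It was 216, 189, 196, 148 and 129 CPM in AAV-NC livers and 93.7 to 190 CPM with AAV-TuD, with a median of 158 CPM, and its log2 fold change was -0.21 (SE 0.16). Only AAV-TuD liver 10 was below all controls. *Ces1g*, a further lipid-metabolising member, was 64.5, 57.3, 46.2, 37.6 and 37.5 CPM in the controls and 47.9 to 68.1 CPM with AAV-TuD, with a median of 59.5 CPM. Its log2 fold change was 0.27 (SE 0.14), again not past the threshold. *Ces1g* and *Ces2e* were the members with a positive log2 fold change, and both had their highest control value in AAV-NC liver 1.

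*Ces3b* was 266, 269, 306, 340 and 365 CPM in the control livers and 152 to 241 CPM with AAV-TuD, with a median of 215 CPM. The groups did not overlap and the log2 fold change was -0.57 (SE 0.11). *Ces3a*, its 95.3% identical neighbour and an abundant esterase of the liver endoplasmic reticulum, was 577, 696, 619, 843 and 697 CPM in the controls and 525 to 691 CPM with AAV-TuD, with a median of 616 CPM. Its log2 fold change was -0.17 (SE 0.11), which did not pass the threshold. AAV-NC liver 7, with the largest share of *Mup* reads, had the highest *Ces3a* level of all livers.

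**Figure D1:**
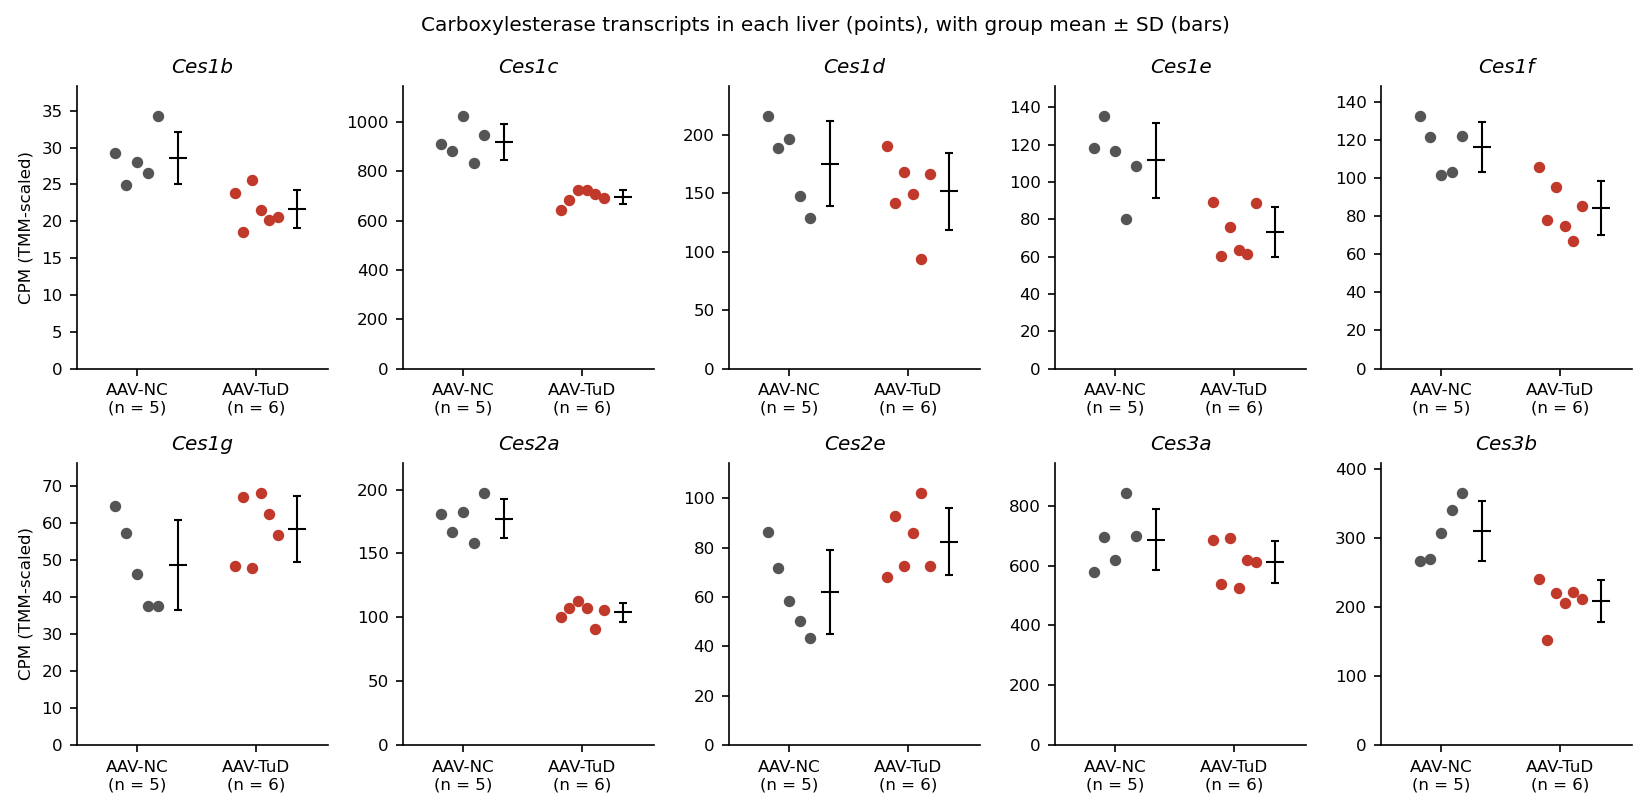
The vertical axes show TMM-scaled CPM of each member from 0, with 1 point per liver (grey, 5 AAV-NC; red, 6 AAV-TuD) and the mean ± SD beside them. All AAV-TuD points lie below all AAV-NC points for *Ces1c*, *Ces2a* and *Ces3b*, while those of *Ces1g* and *Ces2e* extend above the controls.

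In counts, 6 of the 10 members were called lower with AAV-TuD, beside 4.33% of all genes tested, namely *Ces1b*, *Ces1c*, *Ces1e*, *Ces1f*, *Ces2a* and *Ces3b*. None was called higher, beside 7.24% of all genes (0 with DESeq2 and 1, *Ces2e*, at an unadjusted p under 0.05 in edgeR). The groups did not overlap for 3 of the 10, beside 7.39% of all genes. Since this contrast chose the family, nothing is read from these counts. Their median log2 fold change was -0.40 over the members and -0.0024 over all genes, and by subfamily it was -0.40 for *Ces1*, -0.18 for *Ces2* and -0.37 for *Ces3*. As a description, each subfamily held at least 1 member called lower and at least 1 that was not called.

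These differences depend on the scale used for the libraries. With library size alone, *Ces2a* was the only member called lower, with a log2 fold change of -0.55, and *Ces2e* was called higher at 0.66. *Ces3a* changed sign to 0.07, and the 5 other members called lower with TMM lay between -0.43 and -0.18 without passing the threshold. Relative to the median of all genes under that scale, 0.23, *Ces2a* was at -0.78, *Ces1e* at -0.66, *Ces3b* at -0.58, *Ces1f* at -0.50, *Ces1b* at -0.42, *Ces1c* at -0.41 and *Ces2e* at 0.43, each within 0.05 of its value with TMM. Subtracting this median sets the values by the bulk of the genes, much as TMM does. The nearness is therefore largely built in and does not test the choice of scale. With each liver left out in turn, *Ces1c*, *Ces1e*, *Ces1f*, *Ces2a* and *Ces3b* were called lower in 11 of 11 fits. *Ces1b* lost its call without AAV-NC liver 8, with a log2 fold change of -0.33, and *Ces2e* was called higher without AAV-NC liver 1, at 0.56. These fits reuse the livers of the contrast that chose the family. They describe how far the calls depend on 1 liver and are not further support for them.

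**Figure D2:**
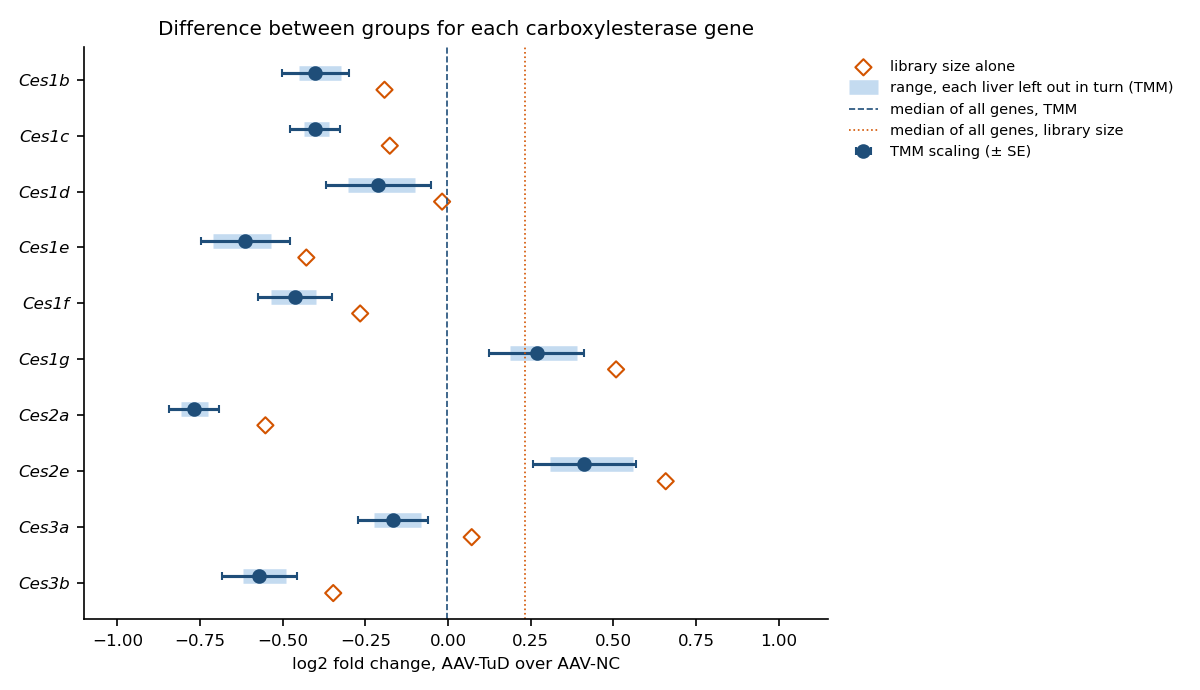
The horizontal axis is the log2 fold change of AAV-TuD over AAV-NC. Filled points with bars give the value with TMM scaling ± SE, pale bands the range with each of the 11 livers left out, and open diamonds the value with library size alone, with vertical lines at the median of all genes under each scale. The diamonds lie to the right of the filled points by about as much as the medians differ, from -0.0024 to 0.23, and *Ces2a* is the leftmost gene under both scales.

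The ratio of the reads of a pair of paralogs within a liver needs no scaling between libraries, and ratios were therefore formed after the values had been seen, as a description without a test. The ratio of *Ces2a* to *Ces2e* reads was 2.10, 2.33, 3.13, 3.13 and 4.54 in AAV-NC livers 1, 2, 6, 7 and 8, and 0.887 to 1.55 with AAV-TuD, with a median of 1.35. The groups did not overlap, so that *Ces2a* transcripts outnumbered those of *Ces2e* in every control liver and were the fewer in AAV-TuD liver 10. *Ces3b* to *Ces3a* was 0.461, 0.386, 0.495, 0.404 and 0.523 in the controls and 0.283 to 0.391 with AAV-TuD, with a median of 0.348, and 5 of 6 AAV-TuD livers were below all controls. *Ces1e* to *Ces1g* was 1.83 to 2.90 in the controls and 0.901 to 1.84 with AAV-TuD, and *Ces1c* to *Ces1g* was 14.1 to 25.2 and 10.2 to 15.1, with 5 of 6 AAV-TuD livers below all controls for each.

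**Figure D3:**
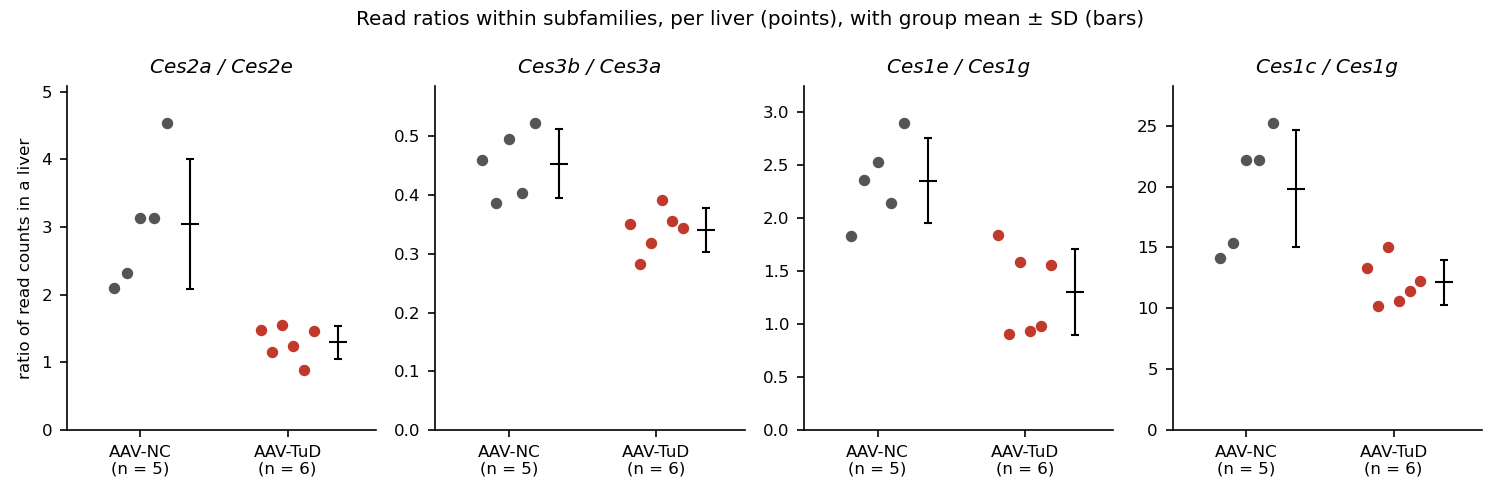
Each panel shows the ratio of read counts of 2 members in a liver, from 0, with 1 point per liver (grey, 5 AAV-NC; red, 6 AAV-TuD) and the mean ± SD. For *Ces2a* over *Ces2e* the AAV-TuD points end at 1.55 and the AAV-NC points begin at 2.10, whereas in the other panels 1 AAV-TuD liver reaches the lowest control.

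Summed over the family, the level was 2634 ± 42.8 CPM with AAV-NC (SD, n = 5, range 2582 to 2680) and 2091 ± 111 CPM with AAV-TuD (n = 6, range 1937 to 2231), 20.6% lower. Relative to its mean, the sum varied less between control livers than any single member did. This did not hold with AAV-TuD, where *Ces1c*, with a coefficient of variation of 4.26%, varied less than the sum. The *Ces1* genes gave 1399 ± 109 and 1085 ± 45.3 CPM, the *Ces2* genes 239 ± 20.9 and 186 ± 11.6 CPM, and the *Ces3* genes 996 ± 131 and 820 ± 94.7 CPM. By subfamily the sum was made up in the 2 groups of 53.1% and 51.9% from *Ces1*, 9.08% and 8.95% from *Ces2* and 37.8% and 39.1% from *Ces3*. As a share of all reads of a liver the family took 0.175% to 0.275% with AAV-NC and 0.194% to 0.253% with AAV-TuD, and these ranges overlapped. Outside the *Mup* genes the shares were 0.285% to 0.326% and 0.259% to 0.282% of the remaining reads and did not overlap. These shares were computed after the data had been seen.

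**Figure D4:**
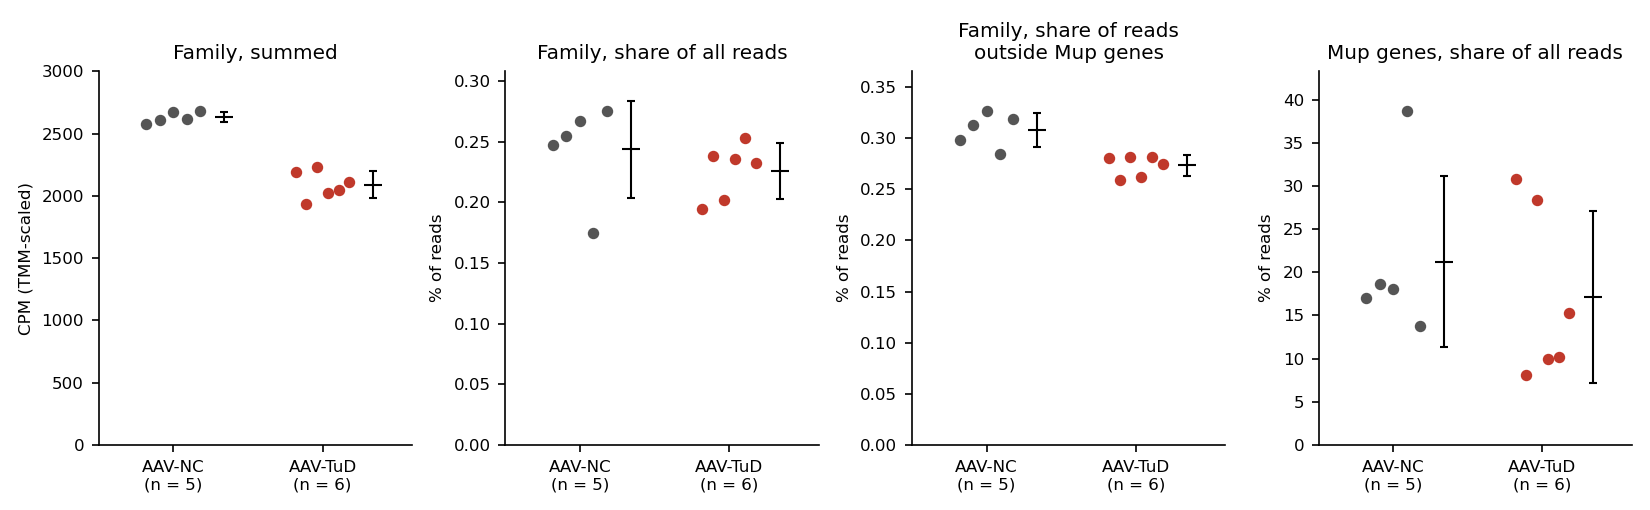
From left to right, each liver's summed CPM of the 10 members, their share of all reads, their share of the reads outside *Mup* genes, and the share of *Mup* reads, all from 0, with 1 point per liver (grey, 5 AAV-NC; red, 6 AAV-TuD) and the mean ± SD. The groups are apart in summed CPM and in the share outside *Mup* genes and overlap in the share of all reads, where AAV-NC liver 7, with 38.6% *Mup* reads, is the lowest of all livers at 0.175%.

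Whether *Ces2a* varied together with the other members was examined within the groups, after the group means of log2 CPM had been subtracted, which does not use the difference between the groups. Over the 11 livers the highest of the 9 correlations were with *Ces1b* (Pearson's r = 0.59, permutation p = 0.0792, adjusted over the 9 pairs p = 0.556, and Spearman's rho = 0.57, permutation p = 0.0896, adjusted p = 0.403). With *Ces1c* r was 0.53 (permutation p = 0.124, adjusted p = 0.556) and rho was 0.61 (permutation p = 0.0659, adjusted p = 0.403). Without AAV-NC liver 7 and AAV-TuD liver 10, the farthest from the median of *Ces2a*, r was 0.60 for each of these, but it turned from 0.31 to -0.62 for *Ces1d*, from 0.27 to -0.56 for *Ces1e*, from 0.40 to -0.18 for *Ces1f* and from -0.07 to 0.29 for *Ces3b*, so the signs of these 4 rest on those livers. Without AAV-NC liver 7 alone, r with *Ces1c* was 0.33. None of the 9 pairs passed the threshold, with r between -0.37 and 0.59. With library size alone as the scale, *Ces1b* (r = 0.87, adjusted permutation p = 0.0104) and *Ces1c* (r = 0.94, adjusted permutation p = 0.00979) passed it, and the correlations with *Ces1g*, *Ces2e*, *Ces3a* and *Ces3b* turned from negative to positive. All 45 pairs of members were then compared in the same way, a step added after the data had been seen. The strongest was *Ces1g* with *Ces2e* (r = 0.92, permutation p = 0.00127, adjusted over the 45 pairs p = 0.0573, and rho = 0.87, permutation p = 0.00442, adjusted p = 0.122), and no pair passed the threshold with TMM scaling. Without AAV-NC livers 1 and 8 its r was 0.87. With library size alone 3 pairs passed, *Ces1b* with *Ces2a*, *Ces1c* with *Ces2a*, and *Ces1g* with *Ces2e* (r = 0.97, adjusted permutation p = 0.00365). Under that scale r was above 0 for 43 of the 45 pairs, with a median of 0.56. With TMM it was above 0 for 25, with a median of 0.07. A positive r under library size alone was thus not particular to these pairs. Of the 8371 genes that averaged 50 reads or more, those whose within-group pattern over the 11 livers was most like that of *Ces2a* included *Gls2* (r = 0.95), *Atp5mc3* (0.89), *Coa7* (0.88) and *Ncbp2* (0.87), which are given as a description.

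Matches to the seeds of the miRNAs bound by the decoy were sought in the longest 3′ UTR annotated for every member. *Ces3b* was the only member with one, to the seed of miR-379-5p, at base 354 of its 667-base UTR. No member had a match to miR-541-5p. The letters searched were the reverse complement of bases 2 to 8, GTCTACC for miR-379-5p and AATCCCT for miR-541-5p, on the strand of the transcript, and occurred in 5.7% and 9.5% of the 10935 UTRs of tested genes. The matching stretch of *Ces3b* is shown with the seed match in capitals, as the match found among the members. Of the other family genes in the table, *Ces2b* also had a match to miR-379-5p, at base 1341 of its 1703-base UTR. A match is a description and not a site of action. Seeds of the other miRNAs that the study reports as lowered by the decoy were not searched.
Ces3b: attagaacctgGTCTACCacaagctcaga

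RefSeq promoter windows, 250 bases before to 50 after the start, were found for 7 of the 10 members, in 8 windows. *Ces1d*, *Ces1f* and *Ces3a* had no entry. Letters of 5 motifs were sought on both strands. AGGTCA, a core of nuclear receptor sites present in 16.3% of the 32851 windows, occurred in *Ces2a* at -226 from the start and in no other member. GTTAAT, a part of HNF1 sites found in 7.1% of windows, occurred in *Ces3b* at -56. TATAAA, the core of a TATA box in 13.6% of windows, occurred in *Ces3b* at -30 and, on the opposite strand, in *Ces1g* at -26. CAAAGTC, an HNF4 core in 4.4% of windows, and CACGTG, an E box in 7.2%, occurred in none of the members. The windows of *Ces1b*, *Ces1c*, *Ces1e* and *Ces2e* held none of the 5. The letters AGGTCA of *Ces2a* lie ahead of the run that it shares with *Ces2e*.

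Another 4 genes of the family were in the table without being members, *Ces2b*, *Ces2c*, *Ces2g* and the pseudogene *Ces2d-ps*, and none of them was called (0 at an unadjusted p under 0.05 in edgeR, and 0 with DESeq2). *Ces2c*, a triacylglycerol hydrolase better known from the intestine, was 59.8 ± 39.3 CPM with AAV-NC (n = 5) and 67.3 ± 15.8 CPM with AAV-TuD (n = 6), with a log2 fold change of 0.17 (SE 0.29). Its value in AAV-NC liver 7 was 127 CPM, and without this liver the log2 fold change was 0.65 and was called higher (adjusted p = 0.0434 in edgeR's quasi-likelihood test). *Ces2g* was 12.5 ± 3.41 and 12.8 ± 1.13 CPM, with a log2 fold change of 0.04 (SE 0.15). *Ces2b* and *Ces2d-ps* were low, at 1.99 and 4.69 CPM with AAV-NC and 1.69 and 4.58 CPM with AAV-TuD. Of the 50-base words of *Ces2c* 35.7% occurred elsewhere, mostly in *Ces2d-ps*, so their counts are uncertain. *Ces1a*, *Ces1h*, *Ces2f*, *Ces2h*, *Ces4a* and *Ces5a* were not among the genes tested.

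The genes around the family were compared to see what the same chromosomal regions did. Within 500 kb of the *Ces2* and *Ces3* genes 22 other genes were tested, and 0 were called by edgeR (2 higher and 2 lower at an unadjusted p under 0.05, and 0 with DESeq2). Their median log2 fold change was 0.04. *Ciao2b*, a cytosolic iron-sulfur assembly gene and the nearest on the lower side at 92.0 kb, was at -0.15 (SE 0.13), and *Cbfb*, a partner of RUNX transcription factors and the nearest on the upper side at 76.7 kb, was at 0.00 (SE 0.21). The antisense gene *Gm45724* within the region was at -0.36 (SE 0.31). Near the *Ces1* genes 2 others were tested. *Gm45909*, inside the region, was at 0.11 (SE 0.42). *Mmp2*, a gelatinase of matrix-producing cells 203.3 kb away, was higher with AAV-TuD, from 0.396 to 2.22 CPM (log2 fold change 2.48, SE 0.38, adjusted p = 0.00116 in edgeR's quasi-likelihood test), beside the rise of stellate cell markers given above. It averaged 15.3 reads per liver and was near the floor in the controls. It thus met the filter on low counts mainly through the AAV-TuD livers, and nothing further is read from its call.

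Genes that share the family's substrates or regulation were examined as lists. Over all genes tested, 7.24% were higher and 4.33% lower, with a median log2 fold change of -0.0024, and the counts of the lists are to be read against these shares. The list of lipid ester hydrolases, which also holds regulators of such enzymes, had 24 tested genes. Of these, 2 were higher, a number close to the 7.24% of all genes, and 3 were lower, with a median of -0.06. *Lipa*, the lysosomal acid lipase, rose from 110 ± 11.5 to 163 ± 23.1 CPM (0.57, SE 0.10, adjusted p = 0.00288 in edgeR), and *Abhd2* rose from 18.2 ± 8.53 to 33.6 ± 8.94 CPM (0.87, SE 0.24, adjusted p = 0.0302 in edgeR). *Aadac*, the arylacetamide deacetylase that, like the carboxylesterases, sits in the endoplasmic reticulum and cleaves drug amides and esters, fell from 287 ± 22.4 to 235 ± 10.5 CPM (-0.29, SE 0.07, adjusted p = 0.0126 in edgeR). The acyl-protein thioesterase *Lypla1* (-0.28, SE 0.07, adjusted p = 0.0178 in edgeR) and the lysophospholipase *Pnpla6* (-0.32, SE 0.09, adjusted p = 0.0326 in edgeR) also fell. Under library size alone 0 of the list were called lower. Leaving out AAV-NC liver 2, 6 or 7 or AAV-TuD liver 4, 9, 10 or 11 left 1 gene of the list called higher, and without AAV-NC liver 8 there were 5 lower. Of 14 other drug and xenobiotic hydrolases, among them the paraoxonases and epoxide hydrolases, 0 were called in edgeR and 0 with DESeq2, with 2 higher and 0 lower at an unadjusted p under 0.05.

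Of 18 regulators known to act on carboxylesterase genes, 2 were higher and 1 was lower, numbers close to the 7.24% and 4.33% of all genes, with a median of -0.12. *Hnf4a*, the nuclear receptor that maintains hepatocyte gene expression, fell from 154 ± 20.6 to 119 ± 10.7 CPM (-0.38, SE 0.09, adjusted p = 0.0150 in edgeR). *Nfe2l2*, which encodes the oxidative stress factor NRF2, rose from 62.9 ± 8.20 to 102 ± 17.4 CPM (0.69, SE 0.12, adjusted p = 0.00211 in edgeR). *Nr0b2*, the small heterodimer partner induced by bile acids, rose from 7.33 ± 2.05 to 14.8 ± 4.15 CPM (1.02, SE 0.20, adjusted p = 0.00546 in edgeR). The xenobiotic receptor genes *Nr1i2* (PXR, log2 fold change 0.17, SE 0.14) and *Nr1i3* (CAR, 0.41, SE 0.35) were not called. *Hnf4a* was not called under library size alone, and without AAV-TuD liver 9 there were 2 lower regulators.

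Of 28 tested target genes of CAR and PXR, 1 was higher (7.24% of all genes) and 5 were lower (4.33% of all genes), with a median of -0.09. *Cyp3a11*, the main steroid- and drug-oxidising cytochrome of mouse liver, rose from 1259 ± 134 to 1965 ± 333 CPM (0.64, SE 0.12, adjusted p = 0.00409 in edgeR). The glucuronosyltransferases *Ugt2b35* (-0.39, SE 0.08, adjusted p = 0.00491 in edgeR) and *Ugt2b34* (-0.28, SE 0.08, adjusted p = 0.0317 in edgeR) and the cytochrome *Cyp3a13* (-0.27, SE 0.08, adjusted p = 0.0302 in edgeR) fell. With library size alone 6 of the list were higher and 1 lower. The number higher was 4 with DESeq2, 3 with upper-quartile factors or without AAV-NC liver 1, and 2 without AAV-TuD liver 3, 5 or 9. The number lower was 1 without AAV-NC liver 1 or 6 or AAV-TuD liver 4 or 10, 2 without AAV-NC liver 7 or AAV-TuD liver 5 or 9, and 3 without AAV-NC liver 2 or AAV-TuD liver 11.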

How the data were processed

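Liver RNA of 11 male mice, 5 with AAV-NC and 6 with AAV-TuD by the sample labels, was made into QuantSeq 3′ libraries from 500 ng RNA. The authors used BBDuk for trimming, STAR 2.5.3a for alignment to GRCm38 and Rsubread for counting per gene. The deposited values are these counts of whole reads per gene, without normalization. The authors' differential expression used DESeq2 1.38.3, per the submitters' processing notes. Annotation, strand setting and the treatment of reads that match several genes are not given in the sources used here. The sources name separate animals. The study's methods describe mice in shared cages, but which of these animals shared a cage is not given. The p values of the fit set the difference between groups against the spread between animals, each animal taken as independent. Every member had at least 198 reads in each liver.

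The family and all lists of genes were chosen with earlier results of these data known. A gene was tested if over 10 reads were counted in 5 or more livers. The test was glmQLFTest of edgeR 4.0.16 (R 4.3.3) after TMM scaling, with a Benjamini-Hochberg threshold of 0.05. The fit had no covariates and used all 13334 genes. CPM used TMM-scaled library sizes, and log2 CPM for correlations a prior count of 2. Correlations within groups were tested with all 86400 permutations of livers within groups, two-sided. Alternatives were library size alone, upper-quartile and DESeq2 size factors within edgeR, DESeq2 1.42.0 itself, removal of *Mup* genes, filterByExpr or no filter, and each liver left out in turn.

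Positions and transcripts came from GENCODE M21 of GRCm38, which held 13323 of the tested genes, and promoters and miRNAs from RefSeq (GRCm38.p6). Named genes are the 10 members, other family genes in the table, up to 3 called genes of each list and direction with the smallest p, called or nearest neighbouring genes, and the 5 genes most like *Ces2a*. *Nr1i2* and *Nr1i3* were named in addition. Some genes that these rules select are not reported here. Protein sequences were not used here.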

Additional observations from a re-analysis of the deposited data

Results flagged for a closer look

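Of the 36 groups of livers examined for a member of the family or for another carboxylesterase gene or sum, 2 held a liver far from the rest by Dixon's criterion, against 1.8 that chance gives. Both were AAV-NC liver 7, the liver with 38.6% of its reads from *Mup* genes. *Ces2c* was at 127 CPM there and at most 56.2 CPM in the other control livers, a gap of 0.741 of the whole range. *Ces2b* was at 6.13 CPM there and at most 1.55 CPM in the others, a gap of 0.794 of the range. None of the 10 members was among these.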

How the results depend on the processing

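No paired analysis was possible because the groups share no replicate number. Under the size factors of DESeq2, upper-quartile factors, both other filters, removal of *Mup* genes and DESeq2 itself, 6 members were called lower and 0 higher. With library size alone 1 was lower and 1 higher, 71 genes in all were lower, the summed CPM of AAV-TuD over AAV-NC was 0.900 for *Ces1*, 0.914 for *Ces2*, 0.968 for *Ces3* and 0.927 for the family in place of 0.775, 0.779, 0.823 and 0.794, and the lists had 0 lower lipid ester hydrolases, 1 higher other hydrolase, 0 lower regulators, and 6 higher and 1 lower CAR and PXR targets. Under that scale *Ces3a* (0.072), *Ces2b* (0.035) and *Ces2d-ps* (0.24) turned sign, r with *Ces2a* was 0.87 for *Ces1b*, 0.94 for *Ces1c*, 0.74 for *Ces1g*, 0.63 for *Ces2e*, 0.47 for *Ces3a* and 0.54 for *Ces3b*, and 3 of 45 member pairs passed. The cause was not tested beyond the shift of all genes. CAR and PXR targets had 4 higher genes with DESeq2 and 3 with upper-quartile factors, and 0 neighbours of the *Ces1* genes were called within 200 kb.

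With each liver left out, members called lower were 5 to 6 and higher 0 to 1. All genes called lower were 337 (without AAV-TuD liver 4, and 379 without liver 10) to 714 and higher 675 to 1115. The lists had 1 to 3 higher and 2 to 5 lower lipid ester hydrolases, 0 to 1 higher other hydrolases, 1 to 2 lower regulators, and 1 to 3 higher and 1 to 5 lower CAR and PXR targets. Sums stayed at 0.752 to 0.791 (*Ces1*), 0.755 to 0.803 (*Ces2*), 0.793 to 0.864 (*Ces3*) and 0.783 to 0.806 (family). Without AAV-NC liver 7, r with *Ces2a* was -0.076 for *Ces1e* and 0.078 for *Ces3b*, and *Ces2b* was at 0.76, the top of a range from -0.65. *Ces2d-ps* ranged from -0.24 to 0.27 and *Ces2g* from -0.065 to 0.20, and *Ces2d-ps* turned positive without AAV-NC liver 1 (0.14) or 7 (0.27) or AAV-TuD liver 4 (0.03), 9 (0.0046) or 10 (0.15), and *Ces2g* negative without AAV-NC liver 7 (-0.02) or 8 (-0.065). With words of 75 bases, 12.9% were common to *Ces1b* and *Ces1c*, 14.3% of those of *Ces3a* and 0.47% of those of *Ces3b* were shared, and 1.17% of those of *Ces2a*.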
